A study of Mus musculus with 8 samples.

Results

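The genes described here are the small nucleolar RNAs (snoRNAs) and the related small Cajal body RNAs (scaRNAs) seen in Ribo-seq of mouse liver. The members were all symbols beginning with Snord, Snora or Scarna and a number whose value was above 0 in at least 2 of the 4 Ribo-seq libraries. Of 119 such symbols listed, 105 were members, among 25033 genes in the table. They comprised 66 C/D box snoRNAs, 32 H/ACA snoRNAs and 7 scaRNAs. The livers came from C57BL/6 mice given a diet with 45% of its energy from fat from week 8 and taken at week 25. The HF group had this diet alone, and the HB group also had betaine, a methyl donor, at 2% (w/v) in the drinking water, so both groups shared the diet. Ribo-seq of ribosome-protected fragments (RPFs) and RNA-seq of polyadenylated RNA each had 2 libraries per group, named HF1, HF2, HB1 and HB2. The study's methods name 2 mice per group as the repeats, while the protocols in the labels describe RNA and digests pooled before the libraries were made, so p-values measure the spread between libraries, which may be technical.

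SnoRNAs are short non-coding RNAs of the nucleolus that guide the chemical modification of other RNAs, chiefly ribosomal RNA. C/D box snoRNAs guide 2′-O-methylation by fibrillarin, H/ACA snoRNAs guide pseudouridylation by dyskerin, and scaRNAs guide the same reactions on spliceosomal RNAs in Cajal bodies. Most vertebrate snoRNAs are cut from the introns of host genes. They are not translated, so reads on them in Ribo-seq are not footprints of translation. Their share in such a library can move with how the RNA was digested, selected by size and depleted of ribosomal RNA, and the part of these steps in the values below was not tested.

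The sequences of 4 members among those with the most reads are shown first because they carry much of the snoRNA signal. Capitals mark the C box (TGATGA, in the first 20 bases) and the D box (CTGA, last match in the final 20 bases) on the strand of the RNA. They are GENCODE M21 transcripts on GRCm38, at chr11:69073427-69073561 (plus strand, no host on that strand), chr15:80082847-80082954 (minus, intron of Rpl3), chr9:40803995-40804080 (plus, Hspa8) and chr16:23108953-23109021 (plus, Eif4a2).
Snord118: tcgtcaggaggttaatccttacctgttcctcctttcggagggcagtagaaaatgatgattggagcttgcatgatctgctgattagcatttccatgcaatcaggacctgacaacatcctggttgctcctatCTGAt
Snord43: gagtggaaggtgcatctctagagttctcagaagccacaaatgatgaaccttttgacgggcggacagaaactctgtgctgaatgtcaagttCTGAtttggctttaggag
Snord14d: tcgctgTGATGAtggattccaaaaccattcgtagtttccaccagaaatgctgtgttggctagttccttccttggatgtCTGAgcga
Snord2: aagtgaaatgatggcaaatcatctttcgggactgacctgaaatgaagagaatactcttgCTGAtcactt

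The next sequences belong to members named in the comparison of HB with HF, among them Snord35a, which was read in HF alone. In the H/ACA snoRNAs and scaRNAs, capitals mark the first H box (ANANNA) in the central part of the RNA and an ACA 3 bases before the end, where either was found. They lie at chr1:9942463-9942549 (minus, Snhg6), chr7:45126346-45126435 (minus, Rpl13a), chr12:111540941-111541067 (plus, Eif5), chr11:6620319-6620454 (minus, Tbrg4), chr1:159340283-159340422 (plus, Cop1) and chr12:105031075-105031349 (minus, Snhg10).
Snord87: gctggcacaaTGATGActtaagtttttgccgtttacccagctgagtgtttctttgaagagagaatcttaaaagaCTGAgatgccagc
Snord35a: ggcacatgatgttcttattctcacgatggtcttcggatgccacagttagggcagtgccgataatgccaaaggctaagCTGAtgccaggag
Snora28: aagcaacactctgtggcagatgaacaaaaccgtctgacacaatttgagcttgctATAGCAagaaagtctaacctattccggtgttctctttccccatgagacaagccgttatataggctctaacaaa
Snora5c: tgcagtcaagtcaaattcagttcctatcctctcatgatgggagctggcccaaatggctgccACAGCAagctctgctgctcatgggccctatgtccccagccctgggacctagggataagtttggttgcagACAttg
Scarna3a: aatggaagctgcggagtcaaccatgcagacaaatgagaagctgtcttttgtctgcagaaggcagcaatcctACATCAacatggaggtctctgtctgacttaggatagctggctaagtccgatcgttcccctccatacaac
Scarna13: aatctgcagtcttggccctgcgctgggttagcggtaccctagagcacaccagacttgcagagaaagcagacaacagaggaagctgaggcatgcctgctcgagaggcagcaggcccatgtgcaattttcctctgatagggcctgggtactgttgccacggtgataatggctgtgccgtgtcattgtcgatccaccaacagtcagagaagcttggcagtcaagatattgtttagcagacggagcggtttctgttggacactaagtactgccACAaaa

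The boxes were counted by class as a description only, since the classes are named for these boxes. A CTGA near the end was found in 65 of 66 C/D box members, 3 of 32 H/ACA members and 542 of 1558 snoRNA and scaRNA transcripts of the annotation (34.8%). The exact C box was found in 41 of 66 C/D box members, in no H/ACA member and in 21.3% of all those transcripts. The terminal ACA was found in 26 of 32 H/ACA members, in no C/D box member and in 19.3% of all those transcripts. The H box pattern is loose, since it was found in 80.0% of all those transcripts. A match is a description of the letters and not a proven site.

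Detection was uneven and shallow. Of the 105 members, 83 were above 0 in all 4 libraries, 10 in 3 and 12 in 2. Of the 12 at the edge of the rule, 7 were seen in HF alone and none in HB alone. Just inside the rule, Snord35a had 29 reads in all, Snord47 had 14 and Scarna8 had 10. Just outside it, Snora33, Snord11 and Snord53 had 2 reads each in a single library. The HF libraries were deeper, with 387980 and 1056546 reads on genes against 257086 and 141890 in HB, as recovered from the steps in the RPKM values. More than 3 reads were found for 85 members in HF1, 91 in HF2, 63 in HB1 and 64 in HB2, and 53 members passed this in every library. A member of the median counted length (82 nt) reaches 94.3 RPKM in HF1, 34.6 in HF2, 142 in HB1 and 258 in HB2 with only 3 reads, so a value of 0 in HB bounds little.

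The RNA-seq libraries held almost none of these RNAs. Of 104 members in that table, 5 were above 0 in any library, with 12 reads in all against 56723 in the Ribo-seq libraries. The highest value was Snord118, at 0.626 RPKM in HF1, 1.85 in HF2 and 0 in both HB libraries. No listed snoRNA reached a mean of 1 RPKM there, so none was tested, and polyadenylated RNA gives no level to set the Ribo-seq values against.

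C/D box snoRNAs supplied most of the reads. They took 92.2% of all snoRNA reads in HF1, 90.4% in HF2, 91.6% in HB1 and 95.6% in HB2. H/ACA snoRNAs took 7.35%, 9.16%, 7.01% and 3.53%, and scaRNAs 0.446%, 0.460%, 1.36% and 0.918%. Per length, the C/D box class exceeded the H/ACA class by 3.33, 2.98, 3.39 and 4.44 on the log2 scale of library-scaled reads per kb. The mean was 3.53 ± 0.63 (SD, n = 4 libraries), an 11.6-fold difference in the same direction in 4 of 4 libraries. The two-sided exact sign-flip permutation test gave p = 0.125, the smallest it can give with 4 libraries. Taken between the median entries of the classes, the difference was smaller, at 0.86.

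As a share of all reads on genes, the members together took 2.54% in HF1 (95% exact binomial interval 2.49 to 2.59), 2.63% in HF2 (2.60 to 2.67), 3.08% in HB1 (3.01 to 3.15) and 7.83% in HB2 (7.69 to 7.97). These intervals cover counting error only. The listed entries took 2.59% ± 0.0654 in HF and 5.46% ± 3.36 in HB (SD, n = 2), and the difference of 2.87 percentage points rests mainly on HB2, falling to 0.49 without it. For this share of reads, the two-sided exact permutation test gave p = 0.333, the smallest that 2 against 2 can give. Taken as a percent of summed RPKM, which gives short entries more weight, the difference turned to -2.37 points for all snoRNAs, -1.92 for C/D box and -0.557 for H/ACA, and was 0.115 for scaRNAs. On that measure snoRNAs made up 38.7% in HF1, 33.0% in HF2, 25.4% in HB1 and 41.6% in HB2, so the groups overlapped. The order of the groups also rests on 1 length. The read steps of Snord14d fit 23 nt or its multiples, and those of Snord14a fit 22 nt or its multiples. With 92 and 88 nt, the multiples nearest to the RefSeq length of 87 nt, the shares became 3.64% in HF1, 3.42% in HF2, 3.39% in HB1 and 8.26% in HB2, so that the groups overlapped.

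**Figure D1:**
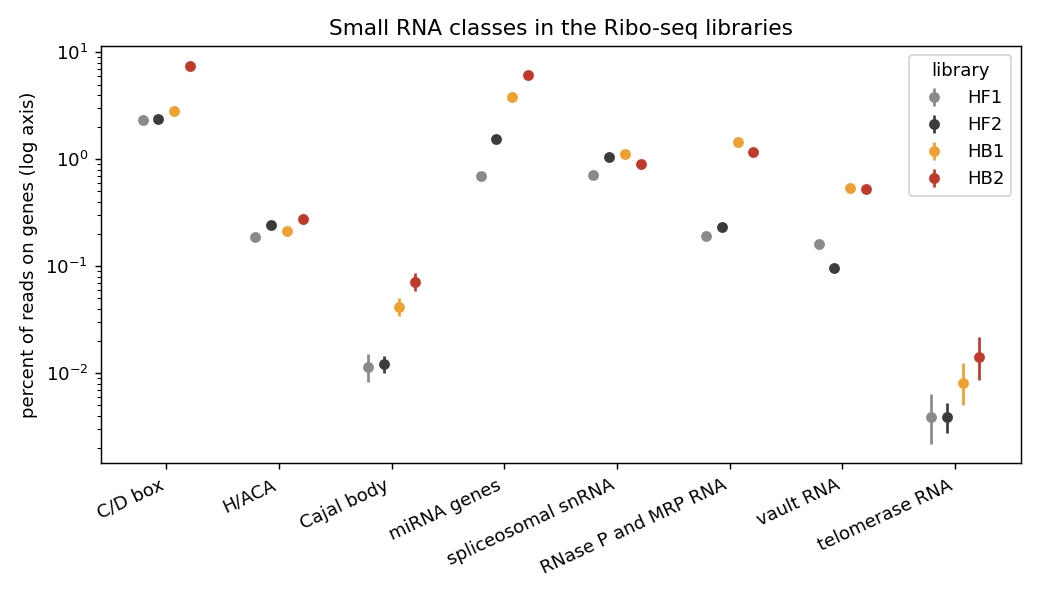
Percent of all reads on genes (log axis) taken by each small RNA class in each Ribo-seq library; points are single libraries and bars are 95% exact binomial intervals. C/D box snoRNAs sit between 2.34% and 7.48% and scaRNAs between 0.0113% and 0.0719%, with both HB libraries above both HF libraries in each of these classes at the smaller length of Snord14d (as a percent of summed RPKM the C/D box difference turns to -1.92), and H/ACA snoRNAs overlap between groups.

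The shares were then taken by class. The C/D box share was 2.34% in HF1, 2.38% in HF2, 2.82% in HB1 and 7.48% in HB2. With the longer length of Snord14d and Snord14a it was 3.45%, 3.16%, 3.13% and 7.91%, and the groups overlapped. The H/ACA share was 0.187%, 0.241%, 0.216% and 0.276%, and its groups overlapped (exact permutation p = 0.667, n = 2 per group). The scaRNA share was 0.0113%, 0.0121%, 0.0420% and 0.0719%, a mean 4.86-fold higher in HB with no overlap (exact permutation p = 0.333, n = 2 per group). Other small non-coding RNAs also took more of the HB libraries. RNase P and MRP RNA were 6.17-fold higher in mean share, miRNA genes 4.44-fold, vault RNA 4.13-fold and telomerase RNA, which carries an H/ACA domain, 2.87-fold, while spliceosomal RNAs overlapped between groups. Reads on protein-coding genes made up 91.8% and 91.1% of the HF libraries and 86.9% and 80.7% of the HB libraries. The part of this shared shift in the snoRNA values was not tested.

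Few members held the signal. The 5 most read entries of each library took 65.5% of snoRNA reads in HF1, 65.0% in HF2, 70.6% in HB1 and 85.0% in HB2. Snord118, the U8 snoRNA that acts in processing of large-subunit ribosomal RNA, led in every library, with 2809 reads in HF1, 7556 in HF2, 2151 in HB1 and 3753 in HB2. With the longer length, Snord14d would have 5676 reads in HF1 and 10972 in HF2 and would lead there. Without the 5 entries that had the most reads over all libraries, the snoRNA share was 1.02% in HF1, 0.964% in HF2, 0.931% in HB1 and 1.27% in HB2, and the groups overlapped.

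The leading members did not move as one. Snord118 was at 52847 and 52202 RPKM in HF and 61072 and 193066 RPKM in HB. Both HB values were higher, and HB2 stood far above the other 3. Snord43 lies in the Rpl3 gene and is classed here as C/D box by its symbol, but GENCODE types its 108 nt transcript, printed above, as a miRNA, and the counted RefSeq length is 48 nt. It was at 44622 and 74772 RPKM in HF and 140841 and 428736 RPKM in HB. Its HB values were again both higher, with a log2 fold change (HB minus HF) of 2.09 (SE 1.08, n = 2 per group, limma adjusted p = 0.577). Snord2 and Snord85 had the same order of groups, with log2 fold changes of 1.73 and 1.90 and limma adjusted p of 0.594 and 0.519. Snord14d, a copy of U14 in Hspa8, went the other way, at 159018 and 112878 RPKM in HF and 44140 and 61591 RPKM in HB. It differs from Snord14c by an edit distance of 2, so its value may include reads of that copy. Snord37, in the Eef2 gene, was also lower in both HB libraries, at 15902 and 20233 RPKM in HF against 10055 and 6782 RPKM in HB.

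**Figure D2:**
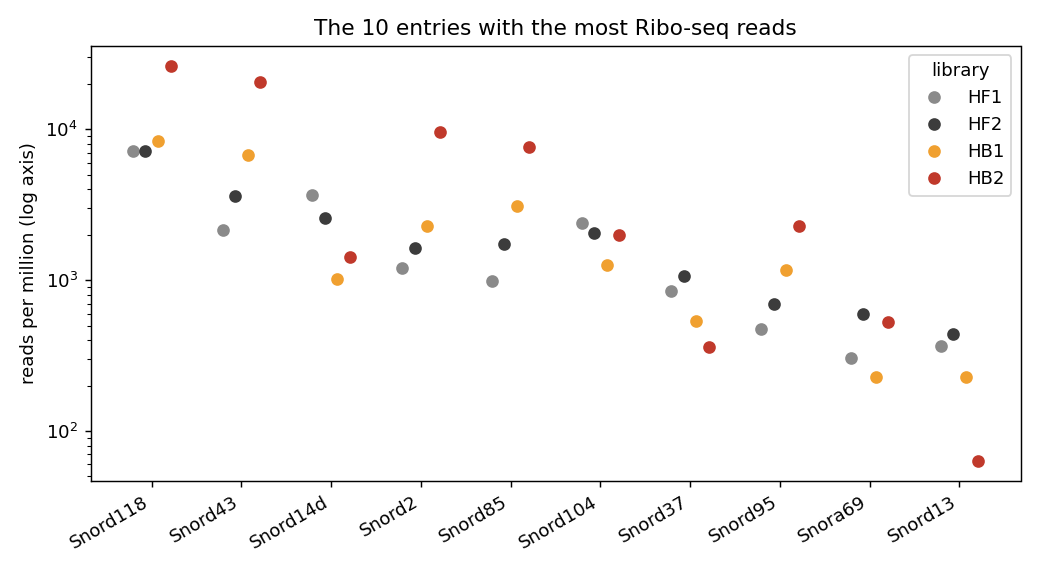
Reads scaled to a common library size (log axis, as plotted) of the 10 entries with the most Ribo-seq reads, 1 point per library. Snord118, Snord43, Snord2, Snord85 and Snord95 are higher in both HB libraries, and Snord14d, Snord104, Snord37 and Snord13 are lower in both.

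Across all genes, calls were made in limma on log2(RPKM + 1), with a log2 fold change beyond 1 in either direction and an unadjusted p under 0.05. At this threshold 177 of 11190 genes were called higher in HB (1.58%) and 879 lower (7.86%). All 105 members were tested, and 13 were called higher and 18 lower. No member passed an adjusted p of 0.05 in this limma test, where 31 members fell below 0.05 before adjustment. With limma-voom on the recovered reads, 13 members passed an adjusted p of 0.05. The median log2 fold change was -0.29 over members and -0.43 over all genes tested.

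Calls were then counted by class. Of 66 C/D box members, 2 were called higher and 14 lower, and 6 of these 14 had no read in HB, so that they met the rule for members through HF alone and could only be lower. The split of the C/D box class depended on the setting, with 9 called higher and 10 lower at a common median and 11 each way with limma-voom on the recovered reads. The median log2 fold change over all genes tested moved too, from -0.43 to -0.10 at a common median and -0.22 with limma-voom. Of 32 H/ACA members, 7 were called higher and 4 lower, and 1 of these 4 had no read in HB. This split also moved, to 1 higher and 11 lower at a common sum of RPKM, 1 and 2 without HF1, 8 and 9 without HB1 and 5 and 10 without HB2. Of 7 scaRNAs, 4 were called higher and none lower, and all 7 had a log2 fold change above 0, as did 3311 of all 11190 genes tested. However, 3 of the 7 overlapped between groups, and the share of all genes with groups apart was not computed. The 4 calls became 2 with no filter, at a common sum of RPKM and without HF1, HF2 or HB2, and 5 of the 7 were above 0 without HF1 or without HB2. Among members above 0 in all 4 libraries the median log2 fold change was -0.21 for 51 C/D box snoRNAs, -0.16 for 27 H/ACA snoRNAs and 1.82 for 5 scaRNAs, beside -0.26 for the 7435 tested genes detected that often. With libraries set to a common median, the first 2 medians turned to 0.12 and 0.17, and that of scaRNAs was 2.15. With a common sum of RPKM the 3 medians were -1.08, -1.03 and 0.95, and the scaRNA median was 1.32 without HF1 and 1.25 without HB2. Among members with at least 10 reads in every library, a minimum that removes members that fell, the medians were 0.66 for 21 C/D box and 0.59 for 9 H/ACA snoRNAs, with 1 and 4 called higher and none lower. The difference between classes was not tested.

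**Figure D3:**
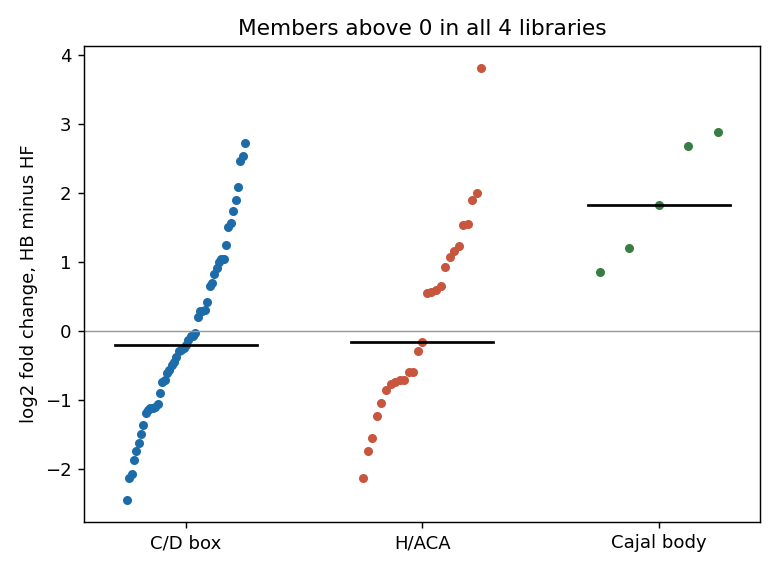
Log2 fold change (HB minus HF, on the log2(RPKM + 1) scale) of members above 0 in all 4 Ribo-seq libraries, 1 point per gene sorted within its class, with the class median as a line. All 5 scaRNAs lie above 0, with a median of 1.82, and the C/D box and H/ACA classes spread to both sides. Of the 7435 tested genes detected that often, 2603 lie above 0.

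Among the scaRNAs, Scarna13 was at 65.6 and 86.0 RPKM in HF and 509 and 461 RPKM in HB. Both HB libraries were above both HF libraries, and the log2 fold change was 2.67 (SE 0.28, n = 2 per group, limma adjusted p = 0.376). Its reads numbered 7, 25, 36 and 18 in HF1, HF2, HB1 and HB2. Scarna3a was at 349 and 184 RPKM in HF and 1450 and 2449 RPKM in HB, a log2 fold change of 2.89 (SE 0.46, n = 2 per group, limma adjusted p = 0.493). Scarna17 rose less, from 582 and 702 RPKM to 1067 and 2046 RPKM, with a log2 fold change of 1.21 (limma adjusted p = 0.493). Scarna6 overlapped between groups, at 31.2 and 30.5 RPKM in HF and 15.7 and 199 RPKM in HB. Scarna2 and Scarna8, at 2 and 10 reads in all, were too thin to place.

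H/ACA and C/D box snoRNAs called higher included Snora28 and Snord87. Snora28, in an intron of the translation factor gene Eif5, was at 660 and 555 RPKM in HF and 2475 and 2388 RPKM in HB. The log2 fold change was 2.00 (SE 0.28, n = 2 per group, limma adjusted p = 0.493), and the groups were well apart. Snord87, from the non-coding host Snhg6, had 2294 ± 6.61 RPKM in HF and 13454 ± 2524 RPKM in HB (SD, n = 2). Its log2 fold change was 2.54 (SE 0.38, n = 2 per group, limma adjusted p = 0.493), with 66, 179, 222 and 160 reads. Snora41 was higher too, at 228 and 276 RPKM in HF and 585 and 1497 RPKM in HB. Snora43 was called on 1, 1, 3 and 7 reads, a pooled read rate ratio of 18.1 with a 95% exact counting interval of 3.86 to 169.9.

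Members called lower were thinner. Of the 18, 12 had at most 3 reads over both HB libraries, 7 had none there, and 5 had under 10 reads in all. Snora5c had the most reads of the H/ACA members called lower, at 970 and 993 RPKM in HF and 270 and 419 RPKM in HB. Its log2 fold change was -1.54 (SE 0.32, n = 2 per group, limma adjusted p = 0.493), from 38, 106, 7 and 6 reads, and it lies an edit distance of 2 from another annotated copy. Snord35a was at 290 and 202 RPKM in HF and at 0 in both HB libraries. It met the rule for members through HF alone, so its direction was fixed and no fold is given. Snord47 was also at 0 in HB, from 278 and 102 RPKM in HF, and the same holds for it. Snora68 had 12 and 37 reads in HF and 2 and 1 in HB, a pooled read rate ratio of 0.222 with a counting interval of 0.0442 to 0.687. Snord57 and Snord73a had the same 2 and 1 reads in HB. Snord13, which has a gene of its own, had 143, 466, 59 and 9 reads and a log2 fold change of -1.74 (SE 0.67, n = 2 per group, limma adjusted p = 0.498).

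**Figure D4:**
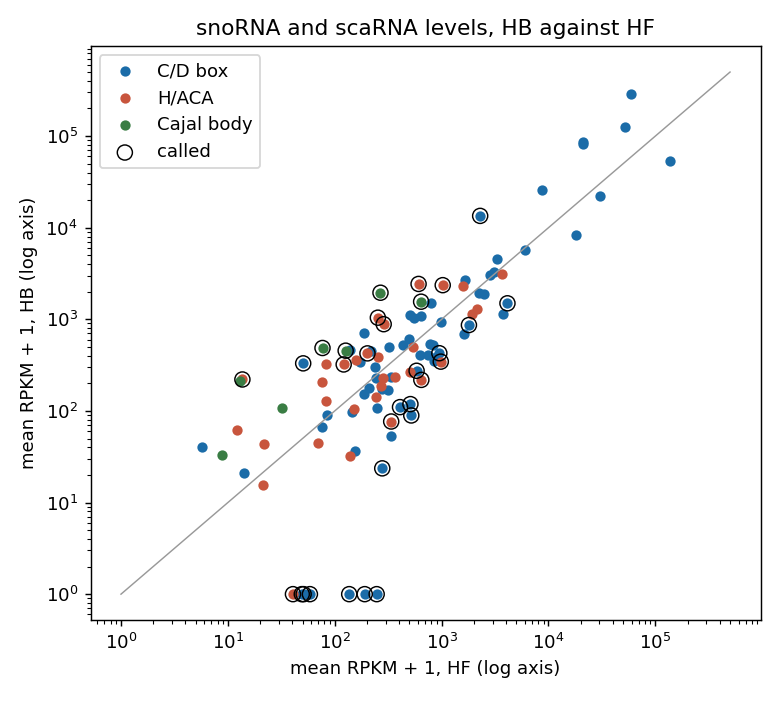
Mean RPKM + 1 in HB against HF for each of the 105 members (log axes, n = 2 libraries per group), coloured by class, with the line of equal values; rings mark the 31 called members. Called scaRNAs lie above the line, and members at 0 in both HB libraries lie along the lower edge.

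The spread between replicates set the limit. Over the 83 members above 0 in all libraries, the median absolute log2 ratio was 0.54 between HF1 and HF2 and 0.86 between HB1 and HB2, against 0.92 to 1.22 between libraries of different groups. Spearman's rho of member levels was 0.93 within HF, 0.80 within HB and 0.71 to 0.74 between groups, as a description across genes that share a library.

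Host genes were compared with the snoRNAs they carry. Of the members, 85 lay in introns, 13 overlapped an exon of some transcript of the host and 7 had no host on the same strand. They fell in 77 host genes, of which 23 encode ribosomal proteins. In RNA-seq, where a call needed a limma p under 0.001, 246 of 10687 genes were called higher (2.30%) and 701 lower (6.56%), and of 69 hosts tested none was called higher and 8 lower. At an unadjusted p under 0.05, the RPF test called 2 of 72 hosts, both lower (2.78%, against 7.86% of all genes called lower and 1.58% higher). Both had no read in HB, so they entered the test through HF alone and could only be lower. Members and hosts had the same sign of change in 32 of 71 pairs in which the member was above 0 in all 4 libraries.

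Rpl13a and Snhg12 each held 4 members. In Rpl13a, a ribosomal protein gene, the log2 fold changes were 0.29 for Snord32a, 0.99 for Snord33 and 0.31 for Snord34, none of them called, and Snord35a was the member at 0 in HB described above. In Snhg12, a non-coding host, they were -0.71 for Snora16a, -1.04 for Snora44 and -1.11 for Snord99, of which Snord99 was called, and Snora61 had 4 and 7 reads in HF against 1 and 0 in HB. Snhg12 itself was at 25.3 and 23.6 RPKM in HF and 7.25 and 10.7 RPKM in HB in RNA-seq, a log2 fold change of -1.37 (limma adjusted p = 0.00833). Snhg6, host of Snord87, was at 18.8 and 15.8 RPKM in HF and 19.2 and 31.0 RPKM in HB in RNA-seq and was not called. As RPFs it was 1 of the 2 hosts called lower, at 6.33 and 23.3 RPKM in HF, from 1 and 10 reads, and listed at 0 in both HB libraries (limma adjusted p = 0.493). It entered that test through HF alone, so its direction was fixed and cannot be set against that of Snord87.

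Genes of the proteins that bind or assemble these RNAs were read against all genes. Of 20 such genes tested in RNA-seq, none was called higher and 1 lower (5%, against 6.56% of all genes), and of 21 tested as RPFs none was called at the unadjusted threshold, where 1.58% of all genes were called higher and 7.86% lower. These shares are too close to the background to be a result about the list. The gene called was Nop56, a core protein of C/D box particles and host of Snord57 and Snord110, at 44.2 and 36.5 RPKM in HF and 12.9 and 9.02 RPKM in HB, with a log2 fold change of -1.80 (limma adjusted p = 0.00526). In RNA-seq Fbl, the methyltransferase fibrillarin, was at 24.4 and 20.7 RPKM in HF and 33.3 and 35.6 RPKM in HB. As RPFs it went the other way, at 28.9 and 25.3 RPKM in HF and 10.1 and 24.3 RPKM in HB. Nop10, of the H/ACA core, was at 27.0 and 26.6 RPKM in HF and 53.9 and 72.8 RPKM in HB in RNA-seq, with an adjusted p of 0.0115 in limma but an unadjusted p above the threshold. Dkc1, the pseudouridine synthase dyskerin, stayed between 1.03 and 3.39 RPKM in RNA-seq. Its RPF values were 2.71 and 4.98 RPKM in HF and 2.73 and 7.42 RPKM in HB. Liver identity was checked by 6 hepatocyte markers, whose summed RPF level was 37584 to 45212 RPKM, against 96.6 to 169 RPKM for 5 Kupffer cell markers, 80.9 to 124 for 4 of stellate cells, 53.0 to 116 for 4 of sinusoidal endothelium and 0 to 4.97 for 4 of cholangiocytes. In RNA-seq the stellate markers summed to 26.3 and 26.5 RPKM in HF and 65.9 and 35.4 RPKM in HB, and the part of this in the results was not tested.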

How the data were processed

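Ribo-seq and RNA-seq were made from the same livers, with 2 libraries per group and assay. The authors used FANSe2 for mapping (mm10) and deposited 1 RPKM value per gene and library; whether reads were counted over exons, and how reads matching several copies were treated, is not given in the sources used here. Ribosomal RNA was depleted and fragments selected by size before Ribo-seq, and RNA-seq took polyadenylated RNA, which lacks most snoRNAs. Whole reads and library totals were recovered from the steps in RPKM: for 98 of 105 members the RefSeq (GRCm38.p6) length gave whole reads within 0.02, and for the rest the smallest whole solution was used. The counted length was shorter than the GENCODE M21 transcript for 86 members, so their RPKM may not compare with that of others. Recovered reads covered 98.1% to 98.6% of the totals. Groups were compared with limma 3.58.1 (R 4.3.3) on log2(RPKM + 1), over genes averaging 1 RPKM or more, with a trended variance and Benjamini-Hochberg adjustment; fold changes are on that scale and understate low genes. The unadjusted thresholds follow the study. Shares were compared with exact permutation tests in scipy 1.17.1, two-sided. The fits were tested on simulated Poisson reads without added spread between libraries. That setting cannot show how the fits perform with the spread seen here. Named members were those with the most reads overall and per class, the called ones with at least 10 reads and smallest p, those sharing a host with 3 or more others, those at the edge of the rule, and called or core pathway genes; Scarna2, Scarna6, Snord42a, Snord61 and Snord110 were named after their values were seen. Members and lists were chosen with earlier results of these data known. Replicate numbers do not pair the libraries.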

Additional observations from a re-analysis of the deposited data

How the results depend on the processing

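Each group had 2 libraries, and HB2, the shallowest, set the snoRNA share. The difference in share, HB minus HF, ranged from 0.493 to 5.25 percentage points when 1 library was left out, from 0.461 to 5.12 for C/D box, from 0.00177 to 0.0622 for H/ACA and from 0.0303 to 0.0602 for scaRNAs. As a percent of summed RPKM, which weights short entries, the difference was -2.37 for all snoRNAs, -1.92 for C/D box, -0.557 for H/ACA and 0.115 for scaRNAs; without the 5 most read entries (chosen after seeing the data) it was 0.107 for all and 0.0298 for C/D box. The longer length of Snord14d and Snord14a, also chosen after seeing the data, gave 2.29 and 2.22. The C/D box excess over H/ACA was 0.864 between median entries and 3.23 to 3.72 with 1 library left out.

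Members called higher and lower numbered 13 and 18. They were 0 and 0 at an adjusted p under 0.05, 5 and 36 at a common sum of RPKM, of which snoRNAs made up 25.4% to 41.6%, 22 and 14 at a common median, and 21 and 13 with limma-voom on recovered reads. The median log2 fold change over all genes tested moved too, from -0.43 to -1.16 at a common sum, -0.10 at a common median and -0.22 with limma-voom. The counts of called members are therefore not results about the members alone. With 1 library left out, where the lone library of a group is assumed to vary like the others, they ranged from 5 to 17 and from 10 to 29. With the replicate block they were 18 and 30, 5 of 72 hosts were called as RPFs, and 2 snoRNP genes in RNA-seq, but the numbers do not pair the libraries (correlation -0.0138 in Ribo-seq and -0.104 in RNA-seq). Calls of Scarna13, Scarna3a, Snora43 and Snord42a (higher) and of Snora5c, Snora68 and Snord61 (lower) held in every setting that kept all 4 libraries, apart from the adjusted threshold, as did that of Snord35a, which was read in HF alone and could only be lower. Snord42a had only 3 reads in HF and 6 in HB, and Snord61 had 37 in HF and 2 in HB. The settings use the same reads, so holding across them is not added support. Snora69 turned to 0.0297 at a common median and ranged from -0.897 to 0.306 with 1 library left out, being above 0 without HF2 or HB1. At a common sum of RPKM, Snora81 turned to -0.32, Snord32a to -0.59 and Snord34 to -0.57, and Snord34 ranged from -0.327 to 0.941 with 1 library left out, being below 0 without HF2 or HB2.

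Host genes called as RPFs numbered 2, and 0 at the adjusted threshold, 1 with a pseudocount of 10, without a filter or with a mean of at least 5 RPKM, 18 at a common sum, 6 with limma-voom and 3 to 11 with 1 library left out. Hosts called in RNA-seq numbered 8, and 2 with a pseudocount of 10, 0 without a filter, 5 at a common median or with limma-voom, and 3 to 14 with 1 library left out. SnoRNP genes called as RPFs numbered 0, and 1 with a pseudocount of 0.1, 2 at a common sum and 1 to 4 with 1 library left out. Those called in RNA-seq numbered 1, and 3 at the adjusted threshold, 0 without a filter, 2 at a common sum or common median and 1 to 2 with 1 library left out. Over all genes tested as RPFs the median log2 fold change also moved, from -0.43 to -1.16 at a common sum and -0.22 with limma-voom. The RPF counts of hosts and snoRNP genes are therefore not results about these lists alone. The causes were not tested.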
